A study of Arabidopsis thaliana with 18 samples.

Results

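A set of 33 genes, out of 37336 annotated genes, was lower in smb than in every other library of germinating Arabidopsis seed. The set was defined from measured values. Counts were divided by the library total and multiplied by 1000000, a unit written CPM. A gene was kept when its mean over the 2 Col-0 libraries was at least 1 CPM, which 16974 genes reached, and when both smb libraries were under 0.67 times the lowest of the other 16 libraries. The rule left out 10 loci of the SMB family and of root cap cell death, of which SMB alone met its other terms. Because the rule compared smb with every other library, the low level in smb is a description of the set and was not tested. Of the 33 genes, 32 are annotated as protein-coding and AT5G44417 as a transcribed pseudogene.

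The samples were germinating seed of Col-0, the wild-type accession, and of the T-DNA insertion lines smb, vnd2, athb15, athb25, hat2, lmi1, obp1 and wrky14, each named for a transcription factor gene. The seed was stratified for 48 h at 4 °C in the dark and collected after a further 24 h of continuous light at 22 °C (24 h SL). Each genotype had 2 libraries, 18 in all. By the paper's methods, seed pooled from several parent plants was collected in duplicate, and RNA was extracted in duplicate. Neither the paper nor the labels say whether the duplicates came from separate pools or batches of seed. The p-values thus measure only the spread between these libraries, which may be technical. Each mutant is a line with an insertion in the Col-0 background, so smb stands for 1 allele.

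SOMBRERO (SMB) is a NAC-domain transcription factor of the root cap, the tissue that covers the root tip. With its close relatives BEARSKIN1 and BEARSKIN2 it is known for driving the maturation of root cap cells. Mature root cap cells secrete wall-modifying enzymes, detach or die, and are replaced from below. Whole germinating seed holds very few root cap cells beside embryo and endosperm. In such bulk samples, fewer cells of a type and less RNA per cell cannot be told apart.

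SMB transcripts were at 8.60 and 8.92 CPM in Col-0 and at 1.27 and 1.64 CPM in smb, and between 8.24 and 11.1 CPM in all other libraries. The gene named on the label was also lower than in Col-0 in athb15, athb25, hat2 and lmi1. It did not pass the test in vnd2, where it was at 0.291 and 0.30 CPM against 0.628 and 0.421 CPM in Col-0. OBP1 was not lower in the libraries labelled obp1 (13.9 and 11.3 CPM, against 9.04 and 8.54 CPM in Col-0). WRKY14 was far higher in the libraries labelled wrky14 (9.45 and 11.1 CPM, against 0.290 and 0.345 CPM in Col-0). Library totals ran from 18146206 counts in smb replicate 1 to 33111743. Most of the 33 genes were expressed at a low level, with Col-0 means from 1.05 to 79.2 CPM and a median of 3.16 CPM. The median of all genes with at least 1 CPM was 20.5 CPM.

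**Figure D1:**
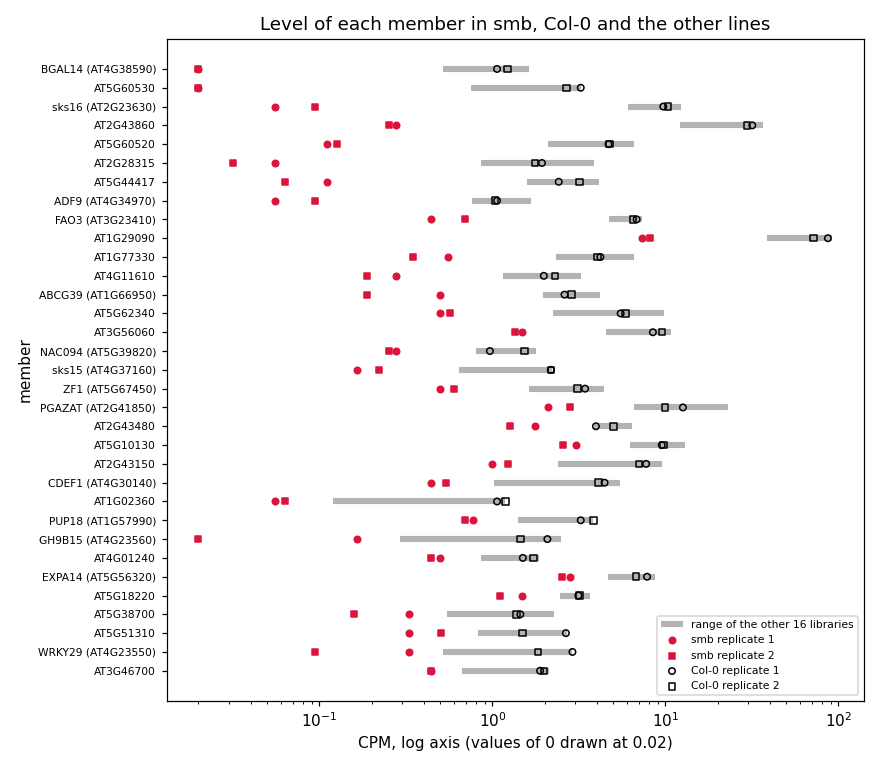
Level of each of the 33 genes in CPM on a log axis, with smb libraries in red, Col-0 libraries as open black symbols and the range of the 16 libraries other than smb as a grey bar. No red symbol reaches a grey bar, and BGAL14 and AT5G60530 have 0 counts in both smb libraries.

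The mean in smb ran from 0 to 41.0% of the Col-0 mean, with a median of 10.9%. In 15 genes it was under 10%, in 15 genes between 10% and 30%, and in 3 genes above 30%. Only 10 genes had 10 or more counts in both smb libraries, and 8 genes had 3 counts or fewer in both, so a low percentage is often known only to within its counting error.

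Pectin is the gel of the plant cell wall that holds neighbouring cells together, and 3 of the 33 genes encode proteins that cut it or control its modification. AT2G43860 (TAIR10 chromosome 2, 18162720 to 18164428), annotated as a pectin lyase-like protein, was the second most abundant of the set. It was at 31.8 and 29.6 CPM in Col-0 and at 0.276 and 0.253 CPM in smb, from 5 and 8 counts. In the 14 libraries of the other lines it was at 12.1 CPM or above, with a median of 22.5 and a highest value of 36.7 CPM. Its smb mean was 0.861% of that in Col-0. PGAZAT (AT2G41850; chromosome 2, 17461655 to 17464242), the polygalacturonase ADPG2 that is known from organ separation and fruit opening, was lowered less. It was at 12.6 and 9.92 CPM in Col-0, at 2.09 and 2.81 CPM in smb, and at 6.54 to 23.0 CPM in the other lines, with a median of 13.3 CPM. The third, AT5G62340, belongs to a family of inhibitors of invertase and pectin methylesterase. It was under 1 CPM in smb alone, with 0.496 and 0.568 CPM there, 5.51 and 5.86 CPM in Col-0 and a range of 2.25 to 9.85 CPM elsewhere. These 3 were among 101 tested genes with such an annotation, of which 8 were called lower and 0 higher in smb, where 1.53% of all tested genes were called lower and 0.618% higher. The 8 include these 3, whose call the rule fixed.

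SKU5-similar (sks) proteins resemble multi-copper oxidases and are attached to or secreted into the cell wall. The member sks16 (AT2G23630; chromosome 2, 10052365 to 10055427) was at 9.71 and 10.4 CPM in Col-0, and at 6.09 to 12.3 CPM with a median of 9.81 CPM in the other lines. In smb it had 1 and 3 counts, which is 0.796% of the Col-0 level by pooled counts, with a 95% exact counting interval of 0.216% to 2.05%. Its relative sks15 (AT4G37160; chromosome 4, 17494512 to 17497276) was at 2.17 and 2.18 CPM in Col-0 and at 0.165 and 0.221 CPM in smb. In the other lines it ranged from 0.642 CPM in the libraries labelled wrky14 to 2.20 CPM. Another 8 genes of the family were tested. Of these, sks9 fell in smb without meeting the rule, to 0.197 from 1.89 CPM (log2 fold change -3.06, edgeR adjusted p = 0.000318). The family was looked up after the values of its members were seen. Among the more abundant relatives sks4 changed by -0.49 (edgeR adjusted p = 0.000903), whereas SKU5, sks5, sks17, sks13, sks3 and SKS1 did not pass the test.

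The promoters of sks16 and sks15 are printed because they share 3 runs of at least 10 bases, in the same order and on the same strand. The 250 bases before each annotated start are given 5′ to 3′, from the TAIR10.1 reference sequence of RefSeq, with the shared runs in capitals.
sks16 (chr2:10055428-10055677, minus strand): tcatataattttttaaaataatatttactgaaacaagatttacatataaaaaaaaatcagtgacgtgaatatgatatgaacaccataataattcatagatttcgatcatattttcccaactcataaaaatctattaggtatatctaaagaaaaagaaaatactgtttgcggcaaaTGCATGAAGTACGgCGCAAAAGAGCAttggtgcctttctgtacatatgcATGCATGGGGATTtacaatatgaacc
sks15 (chr4:17497277-17497526, minus strand): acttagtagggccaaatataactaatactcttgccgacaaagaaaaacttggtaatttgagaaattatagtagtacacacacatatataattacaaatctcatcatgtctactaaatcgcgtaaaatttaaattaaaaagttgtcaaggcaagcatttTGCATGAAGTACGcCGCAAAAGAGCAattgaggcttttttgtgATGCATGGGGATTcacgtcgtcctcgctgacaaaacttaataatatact
The runs are 13, 12 and 13 bases long. Counted to the annotated start, they begin at 75, 61 and 26 bases in sks16 and at 92, 78 and 49 bases in sks15. On either strand, the first run occurred in 3 of 18231 tested protein-coding promoters of this length, those of sks16, sks15 and MYB111. The others occurred in these 2 promoters alone. The runs were found by comparing the promoters of members, so their presence in both was fixed. Longer runs, of 15 and 14 bases, were shared by ABCG39 with GH9B15 and by AT1G29090 with AT5G38700. The genes are relatives on different chromosomes, and what the runs do was not tested.

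A pair of neighbouring genes encode proteins with a Root cap domain, a domain named for root cap proteins of maize, although RefSeq lists both as late embryogenesis abundant-related. AT5G60520 (chromosome 5, 24331670 to 24333144) and AT5G60530 (24333907 to 24335858) lie on the same strand, 762 bases apart. AT5G60520 was at 4.69 and 4.75 CPM in Col-0, at 0.110 and 0.126 CPM in smb and at 2.10 to 6.59 CPM elsewhere, with a median of 3.70 CPM. AT5G60530 was at 3.24 and 2.68 CPM in Col-0 and had 0 counts in both smb libraries. Against a floor of 3 counts a library its mean was at least 22.8-fold lower in smb. Its values in the other lines ran from 0.755 to 2.49 CPM, with a median of 1.87 CPM. Of 6 loci with this domain these were the only 2 with enough counts for a test. The domain was looked up after their values were seen. The next nearest in level, AT5G54370, had 0.298 CPM in Col-0 and 0 counts in smb.

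Other members are annotated to families of glycosyl hydrolases, expansins and extensins. BGAL14 (AT4G38590), a beta-galactosidase, had 0 counts in both smb libraries and was at least 8.80-fold lower than in Col-0, where it was at 1.06 and 1.23 CPM. A stretch of 306 exon bases of BGAL14 overlaps KAK on the opposite strand. GH9B15 (AT4G23560), of the endoglucanase family 9, had 3 and 0 counts in smb and was at 2.08 and 1.46 CPM in Col-0. AT1G02360, a chitinase-family gene, had 1 and 2 counts in smb, or 5.32% of Col-0 by pooled counts (95% exact counting interval 1.06% to 16.4%). AT5G18220, of glycosyl hydrolase family 17, was the least lowered of the set, at 1.49 and 1.11 CPM in smb against 3.14 and 3.18 CPM in Col-0. The expansin EXPA14, a wall-loosening protein, was at 2.81 and 2.53 CPM in smb, 7.83 and 6.74 CPM in Col-0 and 4.67 to 8.71 CPM in the other lines. The extensin-like AT2G43150 was at 0.992 and 1.23 CPM in smb and at 7.73 and 7.05 CPM in Col-0. The Ole e 1 and extensin family gene AT5G10130 was at 3.03 and 2.56 CPM in smb and at 9.52 and 9.77 CPM in Col-0.

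The most abundant member, AT1G29090 (chromosome 1, 10162795 to 10164452), encodes a cysteine proteinase of the papain kind. It was at 86.8 and 71.5 CPM in Col-0, at 7.27 and 8.12 CPM in smb and at 38.8 to 91.5 CPM in the other lines, with a median of 68.0 CPM. With 132 and 257 counts in smb, it is the member whose remaining level is known best. Its smb mean was 9.72% of that in Col-0. Per kilobase of exon, AT1G29090 was at 54.9 CPM in Col-0, followed by AT2G43860 at 21.3 and AT5G10130 at 9.16 CPM.

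A further group was put together by keywords for fatty alcohol oxidases, glucose-methanol-choline oxidoreductases and GDSL lipases or cutinases. CDEF1 (AT4G30140), a cutinase, was at 4.45 and 4.10 CPM in Col-0 and at 0.441 and 0.537 CPM in smb. The fatty alcohol oxidase FAO3 (AT3G23410) was at 6.81 and 6.47 CPM in Col-0 and at 0.441 and 0.695 CPM in smb, with a narrow range of 4.71 to 7.33 CPM in the other lines. AT3G56060, a glucose-methanol-choline oxidoreductase, was at 8.46 and 9.54 CPM in Col-0 and at 1.49 and 1.36 CPM in smb. Outside this group, the peroxidase AT2G43480 kept 33.7% of its Col-0 mean in smb, with 1.76 and 1.26 CPM. It was at 3.84 to 6.39 CPM in the other lines.

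The set held 3 carriers. AT2G28315, a nucleotide-sugar transporter family gene, had 1 count in each smb library and was at 1.93 and 1.76 CPM in Col-0. By pooled counts this was 2.19% of the Col-0 level, with an interval of 0.260% to 8.14%. The ABC transporter ABCG39 (AT1G66950) was at 0.496 and 0.189 CPM in smb and at 2.61 and 2.87 CPM in Col-0. PUP18 (AT1G57990), of the purine permease family, was at 0.772 and 0.695 CPM in smb and at 3.24 and 3.83 CPM in Col-0.

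The transcription factor genes of the set were NAC094, the zinc finger gene ZF1 and WRKY29. NAC094 (AT5G39820), which belongs to the same family as SMB, was at 0.967 and 1.53 CPM in Col-0 and at 0.276 and 0.253 CPM in smb. ZF1 (AT5G67450) was at 3.43 and 3.10 CPM in Col-0 and at 0.496 and 0.60 CPM in smb. WRKY29 (AT4G23550), known from defence signalling, was at 2.90 and 1.84 CPM in Col-0 and at 0.331 and 0.0947 CPM in smb. WRKY29 and GH9B15 lie on opposite strands and overlap by 251 exon bases. Whether counting used the strand is not given in the sources used here, so reads in that stretch could belong to either gene. Together 8 members overlap exons of another gene, by at most 18.02% of their exon length.

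ADF9 (AT4G34970), an actin-binding protein, was at 1.06 and 1.03 CPM in Col-0 and had 1 and 3 counts in smb, 7.67% of Col-0 with an interval of 2.01% to 20.9%. The pseudogene AT5G44417 was at 2.42 and 3.18 CPM in Col-0 and had 2 counts in each smb library, 2.83% of Col-0 with an interval of 0.759% to 7.41%. The 2-oxoglutarate-dependent oxygenase genes AT1G77330 and AT5G51310 had smb means of 10.9% and 20.1% of Col-0. AT4G11610, with C2 domains, was at 10.9%, and the methyltransferase AT4G01240 at 29.1%. AT5G38700, annotated as a cotton fiber protein, was at 17.3% and the glycosyltransferase AT3G46700 at 22.8%.

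The threshold of 0.67 cut through a continuous series of ratios. Just inside it lay AT5G38700 (0.608), AT5G51310 (0.611), WRKY29 (0.643) and AT3G46700 (0.665). Just outside lay ANAC087 (0.676), AT3G14530 (0.677), RGF3 (0.687) and the cysteine proteinase AT2G34080 (0.705). In the fit over all genes the 33 members all had enough counts to be tested and were all called lower in smb, where 1.53% of the 19100 tested genes were called lower. Nothing is read from that count, since the rule fixed it. Leaving out smb replicate 2, the deeper of the pair, would have let 66 genes meet the rule, the same 33 among them.

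**Figure D2:**
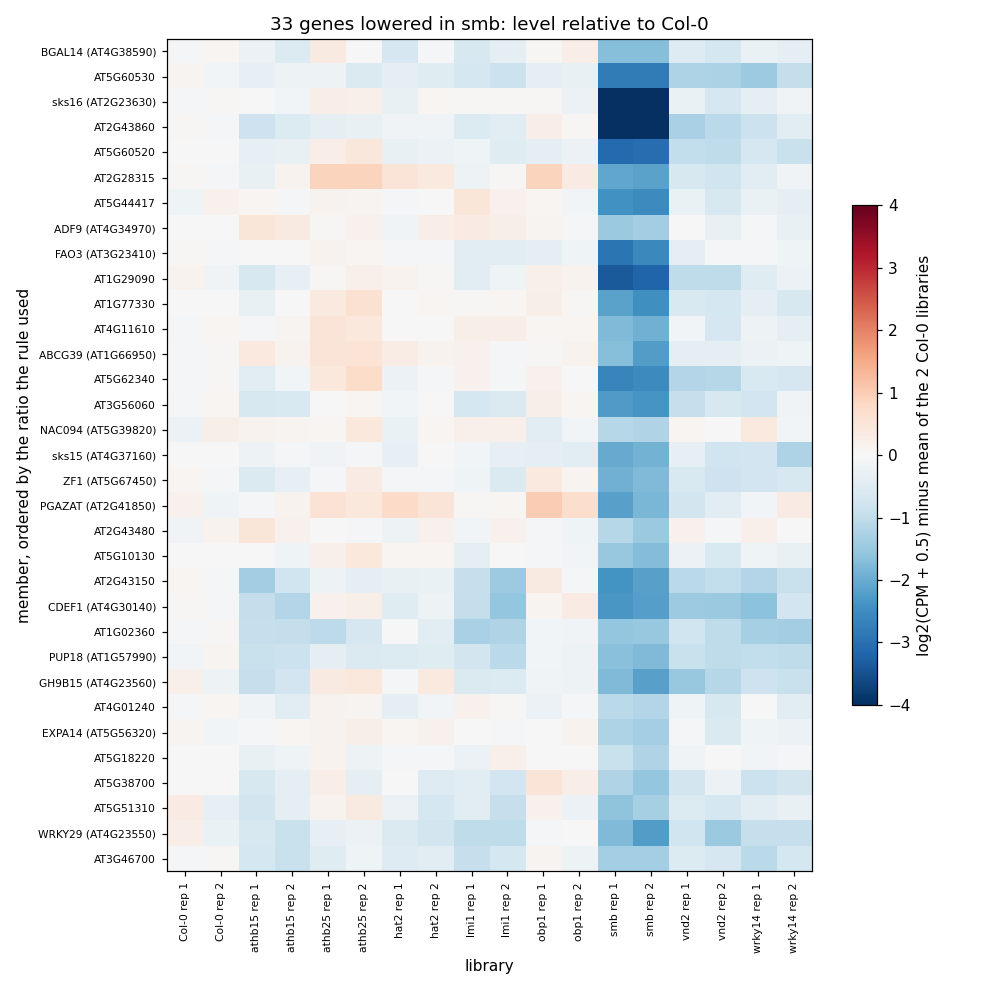
Heat map of the 33 genes (rows, ordered by the ratio that the rule used) in 18 libraries (columns), coloured by log2(CPM + 0.5) minus the mean of the 2 Col-0 libraries. The smb columns are blue throughout, the vnd2 columns are pale blue in most rows and the athb25 columns are red in many.

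The members were not level across the libraries other than smb. The rule asked for a mean of at least 1 CPM in Col-0 and set no such level for the other lines, so it favoured genes that are high in Col-0, the reference of the tests against the other lines. For 11 members the mean of at least 1 other line was under 1 CPM. With the level asked of the mean over all 16 libraries without smb, an alternative added after the results were seen, AT1G02360 and BGAL14 left the set and 0 genes joined it. Of the 31 genes left, 11 were called lower in vnd2, 6 in the libraries labelled wrky14 and 3 in lmi1. The summed CPM of the 33 genes was 245 and 225 in Col-0 and 28.2 and 27.6 in smb. It was 133 and 128 in vnd2, 170 and 189 in athb15 and 184 and 194 in lmi1. The libraries labelled wrky14 held 161 and 183. It was 235 in each hat2 library, 248 and 262 in athb25 and 270 and 247 in the libraries labelled obp1. The vnd2 pair was the lowest after smb, and only athb25 and the libraries labelled obp1 lay above both Col-0 sums. The lowest of the 16 libraries was a vnd2 library for 19 members. An athb25 library was the highest for 14.

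Misexpression in the other lines was tested against Col-0 with edgeR's quasi-likelihood test at an adjusted p under 0.01, over all 19100 genes. The rule barred a member from falling in another line to the level of smb, but it did not bar a smaller fall or a rise. In vnd2, 12 of 33 members were called lower and 0 higher, where 2.16% of all genes were called lower and 1.97% higher. The median log2 fold change was -0.78 for the members and near 0 for all genes. Both vnd2 libraries lay below both Col-0 libraries for 29 members, against 32% of all genes. In the libraries labelled wrky14, 7 members were called lower (0.911% of all genes), the median was -0.45, and 28 members lay below both Col-0 libraries (27.8% of all genes). In lmi1, 4 members were called lower (0.623% of all genes), with a median of -0.29. In athb15, AT2G43860 alone was called lower (0.11% of all genes), although the median was -0.31. Both libraries lay below both Col-0 libraries for 21 members in athb15 (22.5% of all genes) and for 19 in lmi1 (25.7%).

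Against Col-0, 2 members rose in another line. AT2G28315 was called higher in athb25 (0.984% of all genes), at 3.83 and 3.87 CPM against 1.93 and 1.76 CPM (log2 fold change 1.08, SE 0.224, edgeR adjusted p = 0.00879). PGAZAT was called higher in the libraries labelled obp1 (2.51% of all genes), at 23.0 and 18.7 CPM against 12.6 and 9.92 CPM (log2 fold change 0.92, SE 0.154, edgeR adjusted p = 0.00108). In athb25, both libraries lay above both Col-0 libraries for 15 members, against 23.8% of all genes. In hat2 edgeR called 0 members (0.267% of all genes lower and 0.393% higher), with 4 lower and 2 higher at an unadjusted p under 0.05, while the Wald test of DESeq2 called 1 higher. Of 231 tests of a member in another line, 24 were called lower and 2 higher, and 19 of the 33 members were called in no line other than smb.

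**Figure D3:**
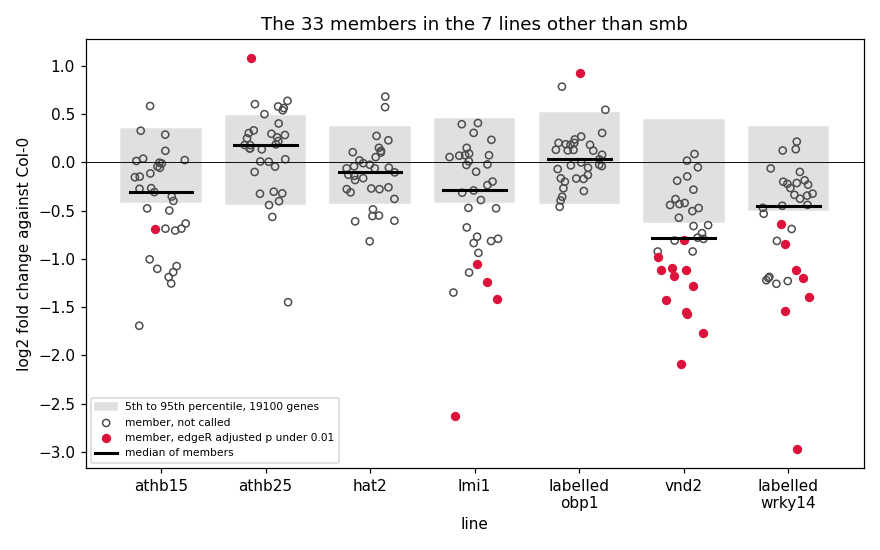
Log2 fold change against Col-0 of the 33 genes (points) in each of the 7 lines other than smb, with called genes in red, the median as a black bar and the 5th to 95th percentile of 19100 genes in grey. The median sits at -0.78 in vnd2 and at 0.18 in athb25.

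The 3 members with the smallest p in vnd2 were a pectin lyase-like gene, a cysteine proteinase gene and an inhibitor gene. AT2G43860 was at 12.1 and 14.4 CPM there, against 31.8 and 29.6 CPM in Col-0 (log2 fold change -1.17, SE 0.121, edgeR adjusted p = 3.44e-06). The inhibitor gene AT5G62340 was at 2.25 and 2.32 CPM, against 5.51 and 5.86 CPM (-1.28, SE 0.178, edgeR adjusted p = 9.91e-05). The proteinase gene AT1G29090 was at 39.1 and 38.8 CPM, against 86.8 and 71.5 CPM (-0.98, SE 0.111, edgeR adjusted p = 1.03e-05). None of the vnd2 libraries overlapped Col-0 for these 3 genes. The remaining 9 were AT1G02360, PUP18, AT2G43150, AT3G56060, WRKY29, GH9B15, CDEF1, AT5G60520 and AT5G60530, with log2 fold changes from -0.80 to -2.09. By contrast sks16, FAO3, ADF9 and NAC094 had smb means of 0.746%, 8.55%, 7.15% and 21.1% of Col-0 and did not pass the test in any other line.

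AT1G02360, AT2G43150, AT2G43860, CDEF1 and PUP18 were called lower in 3 lines besides smb. For the chitinase-family gene AT1G02360, which met the level of 1 CPM through Col-0 alone, the choice of members partly fixed these falls. It was at 0.151 and 0.120 CPM in the libraries labelled wrky14 (log2 fold change -2.97, SE 0.424, edgeR adjusted p = 0.000545) and at 0.155 and 0.207 CPM in lmi1 (-2.63, SE 0.405, edgeR adjusted p = 0.00137). Its Col-0 libraries stood at 1.06 and 1.19 CPM, and athb15 and athb25 held 0.295 to 0.529 CPM without passing the test. The cutinase gene CDEF1 fell to 1.23 and 1.20 CPM in vnd2 (-1.76, SE 0.282, edgeR adjusted p = 0.000424). For these genes smb was the lowest line by the rule, and not the only line with a fall.

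These comparisons all share the 2 Col-0 libraries, and the calls depended on them. Without Col-0 replicate 1 7 members were still called lower in vnd2, 2 in the libraries labelled wrky14 and 0 in lmi1. Without Col-0 replicate 2 there were 8, 1 and 0. Without the first or second library labelled wrky14 there were 0 and 3, and without lmi1 replicate 2 there was 1. A comparison of each line with the mean of the other 6 lines, with neither Col-0 nor smb, was added after the results were seen. There, 12 members were again called lower in vnd2 (4.59% of all genes), and 8 of them were the same as against Col-0. No member was called lower in the libraries labelled wrky14 (0.131% of all genes), in lmi1 (0.0681%) or in athb15 (0.0105%). In the libraries labelled obp1, 13 members were called higher (3.16% of all genes), in athb25 8 (1.53%) and in hat2 3 (0.283%). The call of AT2G28315 in athb25 was lost under 12 of 25 alternative settings, that of AT2G43860 in athb15 under 18 of 25 and that of AT1G02360 in vnd2 under 18 of 24. PGAZAT was not called in the libraries labelled obp1 without Col-0 replicate 2 or without the first of those libraries. The median log2 fold change of the members against the other 6 lines was -0.52 in vnd2, with 31 members below 0, and -0.38 in the libraries labelled wrky14, with 30 below 0.

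An F test for any difference among Col-0 and the 7 other lines did not compare smb, although the smb libraries entered the fit. It called 18 of 33 members, where 11.2% of all genes were called. The rule had used these same libraries to choose the members, so the count describes the set. AT2G43860 and AT1G29090 had the smallest p-values (edgeR adjusted p = 2.82e-06 and 3.75e-06). The members that did not pass included sks16, sks15, FAO3, ADF9, EXPA14, NAC094 and BGAL14. AT5G18220 had the largest p of the set (edgeR adjusted p = 0.891), and was at 2.46 to 3.68 CPM in all 16 libraries.

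Across the 16 libraries without smb most members rose and fell together. Over 528 pairs of members, the median Pearson r of log2(CPM + 0.5) was 0.52, against 0.014 for pairs of all genes. Libraries of a line share its genotype, and the rule used these libraries to choose the members, so these values are a description. With 1 mean per genotype the median was 0.61, and without the vnd2 libraries 0.43. The genes with the highest mean r with the others were AT5G60520 (0.61), ZF1 (0.60), AT1G77330 (0.60) and AT5G62340 (0.60). AT2G43480 (-0.21) and NAC094 (-0.10) did not follow the rest, and AT5G18220 (0.11), ADF9 (0.19) and FAO3 (0.21) followed it little.

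**Figure D4:**
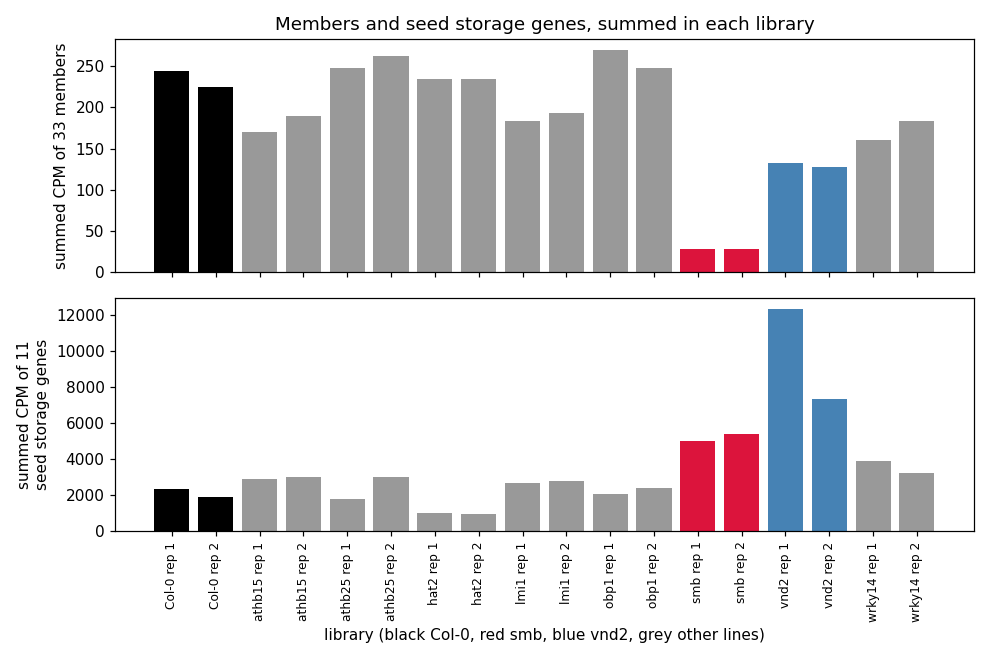
Summed CPM of the 33 genes (upper panel) and of 11 seed storage genes (lower panel) in each of the 18 libraries. The members are lowest in smb and next lowest in vnd2, and the seed storage genes are highest in vnd2 and next highest in smb.

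Genes of other cell types and stages were examined beside the set. Of 11 genes of seed storage and oil bodies, 6 were called higher in smb and 0 lower (0.618% and 1.53% of all genes), with a median log2 fold change of 1.23. In vnd2 all 11 were called higher, with a median of 2.12, and in the libraries labelled wrky14 1 was (0.246% of all genes), with a median of 0.73. Their summed level was 1891 to 2310.4 CPM in Col-0, 4988 to 5405 CPM in smb and 7337 to 12326 CPM in vnd2. These transcripts are made in the maturing seed and decline on germination. They were highest in vnd2 and smb, where the members were lowest. In athb25 replicates 1 and 2 the storage genes were at 1795 and 2969 CPM and the members at 248 and 262 CPM. The paper scored radicle emergence and reported every line but hat2 as late, with smb the most delayed. The part of the storage genes and of the stage of germination in the result was not tested. Without Col-0 replicate 2, 2 listed genes were called higher in smb, and without smb replicate 2 there were 3. In hat2 the storage genes were at 916 to 992 CPM and the members at 235 CPM.

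Few genes of the other lists were called in smb. Of the list of root cap cell death and the SMB family, 6 of 9 matched genes could be tested. In smb 3 were called lower, which were SMB, BEARSKIN1 and BEARSKIN2, and 0 higher. At an unadjusted edgeR p under 0.05, 4 were lower and 1 higher, and the Wald test of DESeq2 called 4 lower and 0 higher. The summed level of the 9 matched genes was 361 to 415 CPM in Col-0 and 265 to 284 CPM in smb. FEZ, on the same list, was at 1.76 and 2.12 CPM in smb and at 0.674 to 1.30 CPM in the other 16 libraries. BFN1, MC9 and RNS3 had Col-0 means of 0.130, 0.212 and 0.0625 CPM and smb means of 0.162, 0.292 and 0.0907 CPM. AT4G04460 and AT4G18425, whose listed names did not match RefSeq, had Col-0 means of 0.586 and 0.303 CPM. Their smb means were 0.217 and 0.237 CPM. BEARSKIN1 (NAC015) had 11 and 15 counts in Col-0 and BEARSKIN2 (NAC070) 7 and 15, and neither had a count in smb. Without Col-0 replicate 2 or without smb replicate 2, SMB was the 1 listed gene called lower. The root cap wall loosening and columella list had 5 tested genes with 0 lower and 1 higher in smb, PIN3, by 0.27 on the log2 scale. The auxin response factors ARF10 and ARF16, which act in columella cells, were at 32.2 and 31.5 CPM in smb and 32.7 and 32.9 CPM in Col-0. In smb 0 genes were called in either direction of 2 tested for root hairs, 3 for endodermis, 7 for xylem, 4 for the root stem cell niche and 5 for the endosperm. At an unadjusted edgeR p under 0.05 these 5 lists held 2 genes lower and 2 higher, and the Wald test of DESeq2 called 0. The 2 lower genes were both on the xylem list, which had 0 higher and a median log2 fold change of -0.70. Its summed level was 9.04 to 9.28 CPM in Col-0 and 6.83 to 7.26 CPM in smb. The root stem cell niche and endosperm lists held 1 higher gene each. The edgeR calls in vnd2 included XCP2, a xylem protease gene, which fell.

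The 250-base promoters were searched for 4 motifs on both strands. A gapped palindrome of CTT, 7 bases of any kind and AAG, a form of the secondary wall NAC binding element known from relatives of SMB, was found in 8 of 33 members (24.2%) and in 8.71% of 18231 tested protein-coding genes. CACG, the core of many NAC sites, was found in 18 members (54.5%, against 46.1%) and CACGTG, which contains it, in 2 (6.06%, against 7.82%). TATAAA was found in 19 (57.6%, against 45.6%). A match is a match of letters and says nothing on whether a protein binds there. With the first 50 bases after the start included, the palindrome was in 9 members (27.3%, against 10.7%). It was in the promoters of AT5G60530, AT2G28315, sks15, BGAL14, GH9B15, EXPA14, NAC094 and AT5G18220. Of these, 4 are printed, AT5G60530 and AT2G28315 for their low level in smb, EXPA14 as a wall protein and NAC094 as a transcription factor. Capitals mark the palindrome and CACG in either orientation, with 250 bases before the annotated start given 5′ to 3′ from TAIR10.1.
AT5G60530 (chr5:24335859-24336108, minus strand): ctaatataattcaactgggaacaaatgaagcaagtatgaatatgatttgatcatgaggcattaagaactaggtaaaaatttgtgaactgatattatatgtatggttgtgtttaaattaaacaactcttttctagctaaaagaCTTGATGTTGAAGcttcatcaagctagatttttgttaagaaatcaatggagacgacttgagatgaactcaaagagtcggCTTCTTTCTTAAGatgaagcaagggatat
AT2G28315 (chr2:12088417-12088666, plus strand): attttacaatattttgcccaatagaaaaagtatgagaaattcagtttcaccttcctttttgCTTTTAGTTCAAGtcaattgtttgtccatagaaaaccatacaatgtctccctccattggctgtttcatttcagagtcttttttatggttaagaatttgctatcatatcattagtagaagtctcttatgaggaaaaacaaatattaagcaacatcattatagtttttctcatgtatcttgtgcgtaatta
EXPA14 (chr5:22808391-22808640, plus strand): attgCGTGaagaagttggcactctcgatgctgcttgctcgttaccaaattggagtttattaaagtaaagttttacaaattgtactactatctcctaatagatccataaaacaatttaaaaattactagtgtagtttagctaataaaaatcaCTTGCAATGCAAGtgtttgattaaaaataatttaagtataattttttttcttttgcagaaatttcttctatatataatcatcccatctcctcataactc
NAC094 (chr5:15940591-15940840, minus strand): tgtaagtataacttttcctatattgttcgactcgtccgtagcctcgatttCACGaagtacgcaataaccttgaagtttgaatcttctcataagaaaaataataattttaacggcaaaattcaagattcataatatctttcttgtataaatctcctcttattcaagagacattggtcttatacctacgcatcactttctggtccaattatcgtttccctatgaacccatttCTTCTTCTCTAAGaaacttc
AT5G60530 holds the palindrome at 108 and at 29 bases before its start, AT2G28315 at 189, EXPA14 at 99 and NAC094 at 20. AT5G60530 was at 0 counts in smb, EXPA14 kept 36.6% of its Col-0 mean and AT5G18220 kept 41.0%. AT2G43860, which kept 0.861% of its Col-0 mean in smb, has neither the palindrome nor CACG in its window. Whether either motif bears on the level in smb was not tested.

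The members are spread over the genome, with 5 on chromosome 1, 6 on chromosome 2, 3 on chromosome 3, 8 on chromosome 4 and 11 on chromosome 5. None lies close to SMB on chromosome 1, where the nearest, AT1G77330, is 876 kb away. The 32 protein-coding members had a median exon length of 1528 bases and 3 exons, against 1798 bases and 5 exons for all tested protein-coding genes. The spread between libraries of a genotype, as the biological coefficient of variation, had a median of 7.84% for the members and 5.68% for all genes.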

How the data were processed

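PolyA-selected, stranded libraries were sequenced from germinating seed. The deposited values were whole-number counts of reads per gene. For these the authors trimmed reads with Trim Galore 0.4.2, mapped them to TAIR10 with HISAT2 2.0.5 and counted them over Araport11 genes with featureCounts 1.5.1. No value was normalized. Symbols, products and promoters came from RefSeq TAIR10.1, which matched 37051 of 37336 genes, 99.5% of them with the same coordinates. CPM used the plain library total.

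Counts of 19100 genes that passed filterByExpr were scaled by TMM and fitted in edgeR 4.0.16 (R 4.3.3), with all 18 libraries in a model of genotype. A gene was called where the quasi-likelihood test gave p under 0.01 after Benjamini-Hochberg adjustment. The standard error was the log2 fold change divided by the square root of F. Replicates differed by 2.21 to 9.92 times the sampling variance, so no pair was treated as 1 library. Intervals and floors cover counting error only. The method was tested on simulated data.

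The members, gene lists and the rule for naming genes were chosen with earlier results of these data known. Named were the members with the smallest ratios, the most abundant, those beside the threshold, those called in other lines, those in neighbouring loci, transcription factors and members of lists or product families. A name in a list was used only where it matched a RefSeq symbol or synonym. Of 13 names for root cap cell death and the SMB family 9 matched. The alternatives were other scalings, filters, thresholds, models and references, DESeq2 1.42.0, a replicate block and leaving out each library.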

Additional observations from a re-analysis of the deposited data

How the results depend on the processing

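The rule gave 33 genes. Scaling by TMM or DESeq2 size factors gave 35 and 36, all 33 among them, and a ratio of 0.5 gave 21. Leaving out each library in turn gave 33 to 66 genes, and leaving out both vnd2 libraries or both wrky14-labelled libraries, chosen after seeing the data, gave 40 and 35. A level of 1 CPM over the 16 libraries without smb gave 31, all among the 33. Of 24 member tests called lower in the other lines, 49 were called without a filter on low counts, 43 at a threshold of 0.05, 12 against the mean of the other 6 lines and 9 to 23 when a library was left out. The 2 called higher became 7 without a filter, 6 at 0.05, 24 against the other 6 lines, 1 with the replicate block and 0 to 2 with a library left out. In vnd2, 12 calls became 7 to 12 with a library left out. In the libraries labelled wrky14, 7 became 15 without a filter, 12 at 0.05, 0 against the other 6 lines and 0 to 8 with a library left out. In lmi1, 4 became 10 without a filter, 10 at 0.05, 0 against the other 6 lines and 0 to 5 with a library left out. A left-out library leaves its genotype with 1 sample, which is assumed to vary like the others. The test among all lines called 18 members, 28 without a filter and 15 to 19 with a library left out, and its likelihood ratio counterpart in DESeq2 was not run. Over all genes, 292 were called lower in smb, with 558 without a filter, 524 at 0.05 and 100.0 to 337 with a library left out. Of listed genes, 3 were called lower in smb, with 1 at a mean of at least 50 counts and 1 to 4 with a library left out. The 7 called higher became 11 without a filter and 2 to 8 with a library left out. No single named call changed sign under these settings.

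Replicate numbers did not pair the samples. Over 36 pairs of genotypes the correlation of deviations for libraries of the same number ran from -0.163 to 0.194. With a replicate block 11 members were called lower for vnd2 and 7 for the lines labelled wrky14. With fewer than 10 counts in a smb library for 23 of the members, depth limits how low each level is known.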
